A study of Homo sapiens with 6 samples.

Results

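The genes described here are 39 regulators of programmed cell death, chosen by symbol: members of the BCL2 family, caspases, adaptors of death receptors, and proteins that leave mitochondria when a cell dies. All 39 have a row among the 23345 gene symbols of the table. RNA was sequenced from A375, an established human melanoma line with an activating BRAF mutation, grown in DMEM with fetal bovine serum. Cells were infected with a lentivirus expressing GFP, the control (3 libraries), or murine BMI1, a subunit of Polycomb repressive complex 1 (3 libraries). Both groups had been through lentiviral infection, and uninfected cells were not analysed here. The labels name neither the vector's promoter nor whether the cells were a clone or a pool, and they do not say that the 3 libraries of a group had been grown apart, so the p-values cover only library-to-library spread, which may be technical.

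In the mitochondrial route to apoptosis, BH3-only proteins sense stress and bind the anti-apoptotic BCL2 proteins, which frees BAX and BAK1 to open the outer mitochondrial membrane. Cytochrome c then assembles APAF1 and caspase 9 into the apoptosome, while DIABLO and HTRA2 relieve the brake that XIAP puts on caspases. Death receptors act through FADD and caspase 8, held in check by CFLAR, and RIPK3 with MLKL carries out necroptosis when caspase 8 is blocked. Melanoma cells are known for high anti-apoptotic BCL2 proteins, among them MCL1 and BCL2A1, and BRAF and MAPK signalling is known to hold the BH3-only protein BIM, product of BCL2L11, in check.

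The libraries held between 20221432 and 30388937 estimated counts. The BMI1 row, which may include murine reads aligned to the human gene, had a mean of 89.4 ± 6.87 CPM (counts divided by the TMM-scaled library size) in GFP and 515 ± 8.51 CPM in BMI1 libraries (SD, n = 3). GFP replicate 1 stood apart from its group on the second principal component, at 26 against -12.4 and -12.2, and calls that change without it are given where the gene or list is described. Of 10 melanoma and melanocyte markers, 7 passed the filter on low counts, with SOX10 and MITF among them, and PMEL, TYR and DCT did not. MLANA and TYRP1 passed the filter but stayed under 1 CPM in each library. Of the 7, S100A1 rose (log2 fold change 0.19, edgeR adjusted p = 0.0237). The summed level of the 10 listed overlapped between the groups, from 860 to 994 CPM in GFP and from 888 to 962 CPM in BMI1 libraries. Of 8 tested fibroblast markers 6 rose. Over all tested genes 17.1% rose and 9.32% fell, which is the background for each marker list here. The summed level of the 10 listed, none at 0 in all libraries, ran from 199 to 209 CPM in GFP and from 283 to 305 CPM in BMI1 libraries. PRRX1 made up most of that sum, at a mean of 159 CPM in GFP and 211 CPM in BMI1 libraries. COL3A1 and THY1 did not pass the filter on low counts. COL1A2 had a mean of 0.357 CPM in GFP and 0.813 CPM in BMI1 libraries, and COL1A1 2.88 and 7.69 CPM. Of 4 tested keratinocyte markers 2 rose, DSC3 and KRT14. The summed level of the 9 listed ran from 64.6 to 76 CPM in GFP and from 82.3 to 84.6 CPM in BMI1 libraries, with KRT1 and IVL at 0 throughout. KRT10, which did not pass, made up most of that sum, at a mean of 60.6 CPM in GFP and 63.3 CPM in BMI1 libraries. Of 4 tested endothelial markers VWF rose and KDR fell, and the summed level of the 7 listed, none at 0 throughout, ran from 9.15 to 10.3 and from 7.67 to 8.55 CPM. Of 2 tested leukocyte markers CD68 rose and LYZ fell, and the summed level of the 9 listed overlapped between the groups, from 43.2 to 49.5 and from 46.4 to 50.7 CPM, with MS4A1 at 0 throughout. The part of these markers in the results was not tested. In bulk RNA, fewer cells of a kind and less RNA per cell cannot be told apart.

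Of the 39 genes, 35 passed the filter on low counts, and 7 of those had an adjusted p under 0.05 in edgeR's quasi-likelihood test (Benjamini-Hochberg, across all tested genes). BCL2A1, HRK, BOK, BCL2L11, BID and PMAIP1 rose in the BMI1 cells, HTRA2 fell, and 28 did not pass. The share called was 20% of the 35, against 26.4% of all 15079 tested genes (17.1% for rises and 9.32% for falls). The median log2 ratio, the fitted log2 fold change of BMI1 over GFP, was 0 for the 35 and -0.01 for all tested genes, and the median size of the change, regardless of sign, was 0.11 and 0.14. The change was smaller than 0.2 on the log2 scale for 28 of the 35 (80%) and for 63.2% of all tested genes. In 14 of the 35 genes the CPM of BMI1 and GFP libraries had no overlap, 10 with BMI1 higher and 4 with BMI1 lower, against 40.1% of all tested genes (22.7% higher and 17.4% lower). Both the threshold and a 2-fold change were passed by 2 of the 35, and by 5.51% of all tested genes. These 2 were BCL2A1 and HRK, and HRK passed the filter only through the BMI1 libraries. Without GFP replicate 1, AIFM1 was added to the rises and CYCS to the falls, so that 9 of the 35 passed, where 36.9% of all tested genes did. After correction for transcript GC content 9 rose and 5 fell, where 37.4% of all tested genes passed. These shares are descriptions and were not tested.

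**Figure D1:**
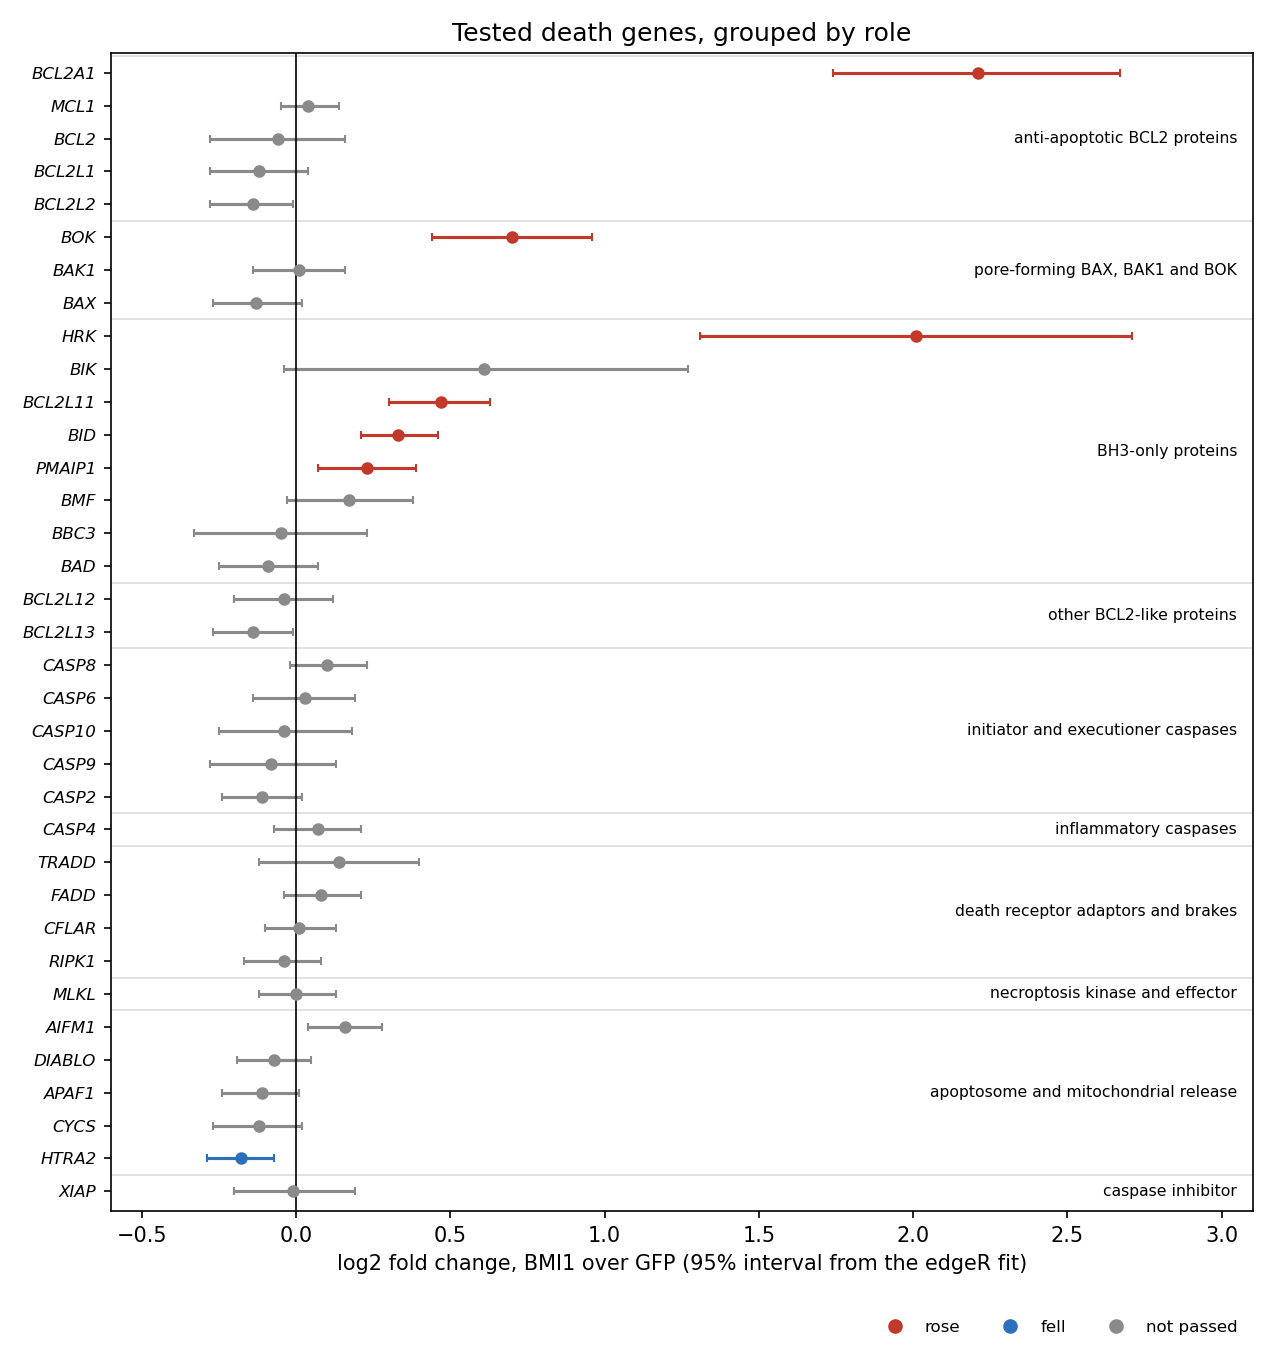
Log2 ratio (BMI1 over GFP, x axis) of the 35 tested genes, grouped by role, with the 95% interval from the edgeR fit; red points rose, the blue point fell and grey points did not pass. Most points lie within 0.2 of 0, and BCL2A1 at 2.21 and HRK at 2.01 stand to the right of all others.

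The anti-apoptotic proteins hold BAX, BAK1 and BH3-only proteins in complexes. Of the 6 genes, BCL2A1 rose and 4 did not pass (rises over all tested genes 17.1%). BCL2L10 had 0 counts throughout, so that a level of up to 0.149 CPM could go undetected in the shallowest library. BCL2A1, a survival gene and known target of MITF and NF-kB, was counted 26, 24 and 19 times in GFP replicates 1, 2 and 3 and 92, 86 and 108 times in BMI1 replicates 1, 2 and 3. On the CPM scale it stood at 1.25, 0.954 and 0.63 in GFP and at 4.10, 4.27 and 4.40 in BMI1 libraries. The BMI1 libraries all lay above the GFP libraries, although the gene stayed at a low level in both groups. Its mean went from 0.943 ± 0.308 to 4.26 ± 0.147 CPM, a 4.62-fold rise and a log2 ratio of 2.21 (SE 0.21, edgeR adjusted p = 7.6e-06). It passed under each of the 14 other settings, with a log2 ratio from 1.96 to 2.45. MITF itself, named with the NF-kB genes after their values were seen, had a log2 ratio of -0.01 (edgeR adjusted p = 0.937). Of the NF-kB subunit genes, NFKB1 passed as lower at -0.16 (edgeR adjusted p = 0.0376), a call lost under 5 of 14 other settings. RELA had 0.04 (edgeR adjusted p = 0.695). The part of these factors in the BCL2A1 value was not tested.

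**Figure D2:**
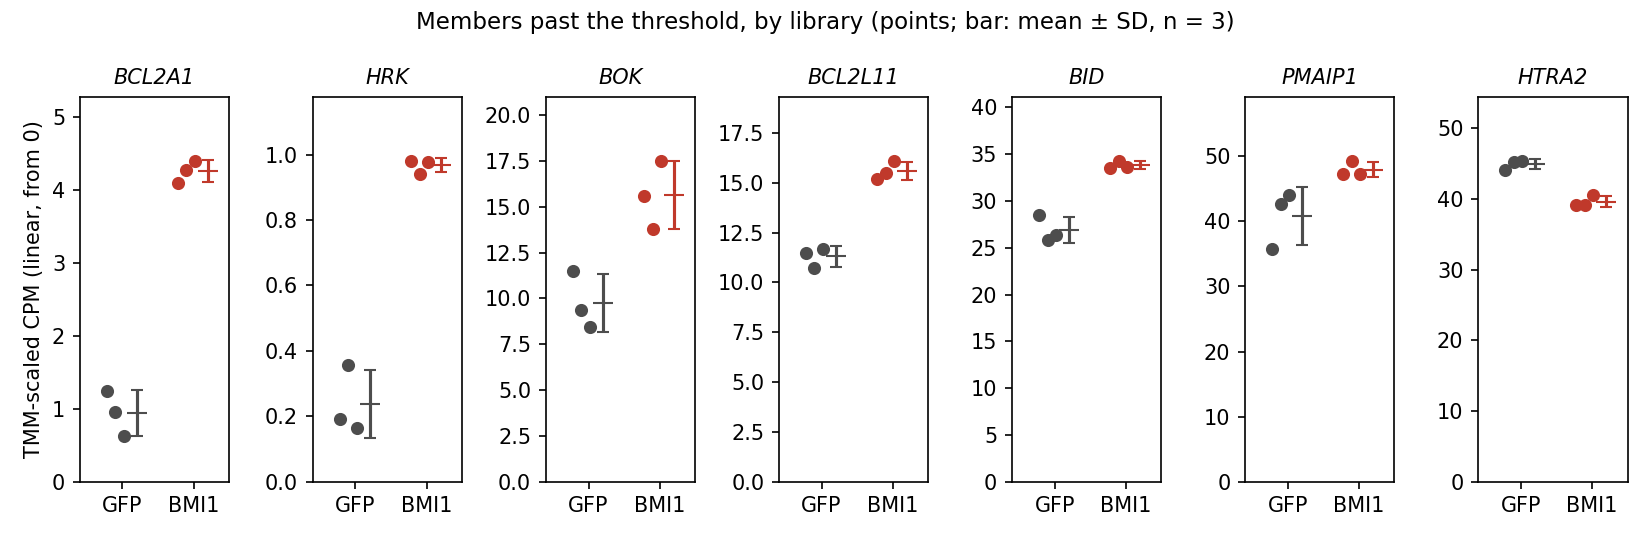
TMM-scaled CPM (y axis, linear and from 0, a scale for each gene) of the 7 genes past the threshold in GFP (grey) and BMI1 (red) libraries; points are libraries and bars are mean ± SD over 3. In each panel the points of the groups do not overlap, with BMI1 higher for 6 genes and lower for HTRA2.

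MCL1, the most abundant of the anti-apoptotic transcripts in counts, stood at 538, 537 and 553 CPM in GFP and at 546, 588 and 543 CPM in BMI1 libraries. The groups overlapped, and the log2 ratio was 0.04 (SE 0.04, edgeR adjusted p = 0.491). BCL2, the founding member of the family, stood between 6.76 and 7.19 CPM in GFP and between 6.16 and 7.17 CPM in BMI1 libraries. BCL2L1, which encodes BCL-XL and BCL-XS by splicing that gene-level counts do not part, had a log2 ratio of -0.12 (SE 0.07, edgeR adjusted p = 0.27). BCL2L2, which encodes BCL-W, had -0.14 (SE 0.06, edgeR adjusted p = 0.108), with each BMI1 library just below each GFP library. BCL2L2 shares exons with the read-through transcript BCL2L2-PABPN1, whose own row had a mean of 64.5 ± 3.97 CPM in the GFP libraries and 62.0 ± 4.21 CPM in the BMI1 libraries, so the split of reads between them is uncertain. After correction for transcript GC content both genes passed as lower, BCL2L1 at -0.16 (edgeR adjusted p = 0.0186) and BCL2L2 at -0.23 (edgeR adjusted p = 0.00926).

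Levels of different genes were compared per length, with the median length of each gene's protein-coding GENCODE transcripts. On that scale MCL1 held 57.5 ± 1.14% of the summed anti-apoptotic level in GFP and 59.6 ± 2.12% in BMI1 libraries (SD, n = 3, exact two-sided permutation p = 0.3). BCL2A1 held 0.518%, 0.397% and 0.264% of it in GFP replicates 1, 2 and 3 and 1.73%, 1.77% and 1.86% in BMI1 replicates 1, 2 and 3. The groups did not overlap, and the exact two-sided permutation p of 0.1 is the smallest that 3 against 3 libraries can give. The 6 shares sum to 100, so they are not independent, and no adjustment over them could bring a p below 0.1. BCL2 held 0.532 ± 0.0173% and 0.514 ± 0.0403%, and BCL2L1 and BCL2L2 held nearly all the rest. The shares rest on the transcript length chosen. With the longest transcript, MCL1 held 83.2% in GFP and 83.1% in BMI1 libraries, and BCL2A1 0.551% and 2.41%. BCL2L2 then held 5.95% in GFP and 5.22% in BMI1 libraries, in place of 23.9% and 21.7%. BCL2L1 held 9.75% and 8.71%, in place of 17.7% and 16.4%. BCL2A1 therefore made up a small part of the anti-apoptotic level in the BMI1 cells under both lengths.

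**Figure D3:**
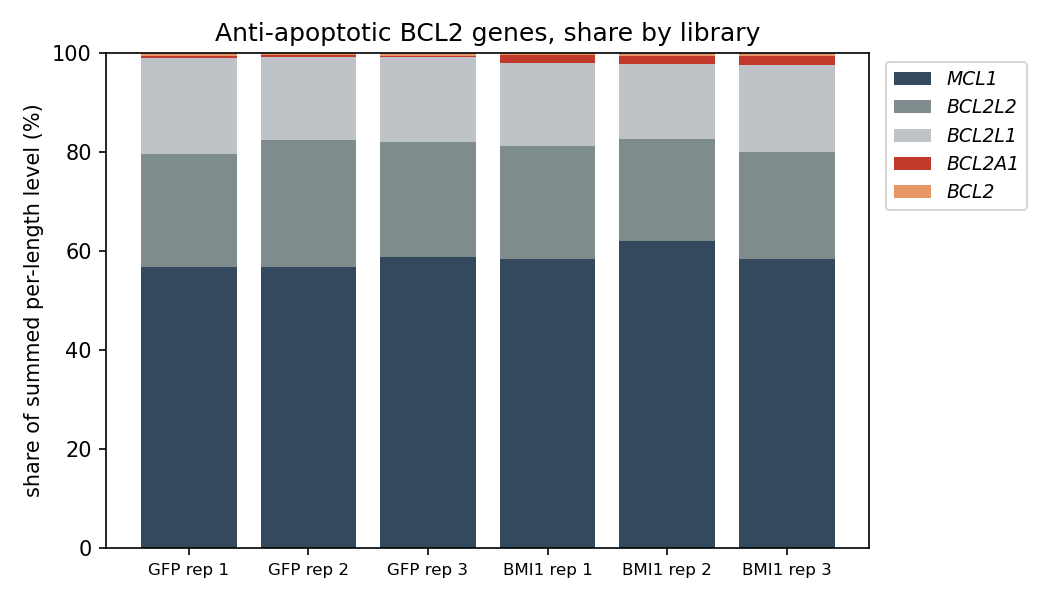
Share (%) of each anti-apoptotic BCL2 gene in their summed per-length level, 1 bar for each library; BCL2L10, at 0 in each library, is not drawn. MCL1 fills between 56.8% and 62.0% of each bar, and the thin BCL2A1 band is wider in the 3 BMI1 bars. The lengths are medians over transcripts, and with the longest transcript the BCL2L2 and BCL2L1 shares were smaller.

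The pore-forming proteins BAX, BAK1 and BOK differ in how they are held in check: BAX and BAK1 are bound by anti-apoptotic BCL2 proteins, whereas BOK is known to be controlled through its degradation. Of these 3 only BOK passed, as a rise, where 17.1% of all tested genes rose. BOK stood at 11.5, 9.38 and 8.42 CPM in GFP and at 15.6, 13.8 and 17.5 CPM in BMI1 libraries, without overlap. The rise was 1.62-fold, a log2 ratio of 0.70 (SE 0.12, edgeR adjusted p = 0.000768), and it ran from 0.55 after GC correction to 0.83 without GFP replicate 1. Exons of BOK overlap those of the antisense gene BOK-AS1, which had between 1 and 8 counts in a library. BAX stood at 49.0, 46.1 and 44.4 CPM in GFP and at 42.1, 39.5 and 45.9 CPM in BMI1 libraries, with overlap (log2 ratio -0.13, SE 0.07, edgeR adjusted p = 0.185). After GC correction BAX passed as lower, at -0.22 (edgeR adjusted p = 0.000935). BAK1 had a log2 ratio of 0.01, with a 95% interval from -0.14 to 0.16.

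Among the 8 BH3-only genes, the stress sensors of the family, 4 rose and 4 did not pass (rises over all tested genes 17.1%), and 6 had BMI1 libraries above all GFP libraries (22.7% of all tested genes). The median log2 ratio of the 8 was 0.28. HRK, among the rises, passed the filter on low counts only through the BMI1 libraries. These 8 were grouped by role with earlier results of these data known, and the share was not tested.

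HRK, which binds BCL2 and BCL-XL and is best known from neurons, was counted 4, 9 and 5 times in GFP replicates 1, 2 and 3 and 22, 19 and 24 times in BMI1 replicates 1, 2 and 3. In CPM these were 0.192, 0.358 and 0.166 against 0.981, 0.942 and 0.977, so that HRK stayed under 1 CPM in each library. The log2 ratio was 2.01 (SE 0.32, edgeR adjusted p = 0.000514). HRK was not tested under the filter of at least 1 CPM in 3 libraries, and passed under the other 13 settings with values from 1.76 to 2.42. Its GFP counts lay below the main filter on low counts, so HRK was tested only through the BMI1 libraries, where it was higher. The setting with no filter gave an edgeR adjusted p of 0.000364.

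BCL2L11, which encodes BIM, rose with more counts behind it. It stood at 11.5, 10.7 and 11.7 CPM in GFP and at 15.2, 15.5 and 16.1 CPM in BMI1 libraries. The 1.38-fold rise was larger than the spread within either group (log2 ratio 0.47, SE 0.07, edgeR adjusted p = 5e-04), and ran from 0.42 to 0.49 over the 14 other settings, passing in all. Exons of BCL2L11 overlap those of the noncoding gene MIR4435-2HG on the other strand, which had no row under that symbol. The part of MIR4435-2HG in the BCL2L11 value was not tested. BID, which links caspase 8 to the mitochondrial route when it is cleaved, stood at 28.5, 25.8 and 26.4 CPM in GFP and at 33.5, 34.3 and 33.6 CPM in BMI1 libraries. Its rise was 1.26-fold (log2 ratio 0.33, SE 0.06, edgeR adjusted p = 0.000854), and it passed under all 14 other settings.

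PMAIP1, which encodes NOXA, a ligand of MCL1 and BCL2A1, stood at 35.8, 42.6 and 44.1 CPM in GFP and at 47.3, 49.3 and 47.2 CPM in BMI1 libraries. GFP replicate 1 was the lowest, and without it the log2 ratio was 0.15 in place of 0.23 (edgeR adjusted p = 0.0444 and 0.0401). The call was lost without GFP replicate 2 (edgeR adjusted p = 0.0634) and without BMI1 replicate 1, 2 or 3 (0.0912, 0.0896 and 0.0825), at log2 ratios from 0.21 to 0.25. Of the other 4, BIK had 38 counts over the GFP and 51 over the BMI1 libraries and a log2 ratio of 0.61 whose 95% interval ran from -0.04 to 1.27 (edgeR adjusted p = 0.156). BMF, a sensor tied to the cytoskeleton, had 0.17 (edgeR adjusted p = 0.204). BBC3, which encodes PUMA, stood between 9.50 and 12.4 CPM in GFP and between 8.58 and 12.1 CPM in BMI1 libraries. BAD, which growth factor signalling holds inactive by phosphorylation, had -0.09 (edgeR adjusted p = 0.411), and -0.23 after GC correction (edgeR adjusted p = 0.0014). Its exons overlap those of GPR137 on the other strand, and whether strand was kept is not given in the sources used here.

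Promoters of the 3 genes with the largest rises, BCL2A1, HRK and BOK, are shown to set the base composition of their start regions side by side. Each runs from 250 bases before to 50 bases after the start that RefSeq gives on GRCh38.p14, 5′ to 3′ on the gene's strand, with CG dinucleotides in capitals. BCL2A1 lies at chr15:79971147-79971446 (minus strand), HRK at chr12:116881392-116881691 (minus strand) and BOK at chr2:241558495-241558794 (plus strand).
BCL2A1: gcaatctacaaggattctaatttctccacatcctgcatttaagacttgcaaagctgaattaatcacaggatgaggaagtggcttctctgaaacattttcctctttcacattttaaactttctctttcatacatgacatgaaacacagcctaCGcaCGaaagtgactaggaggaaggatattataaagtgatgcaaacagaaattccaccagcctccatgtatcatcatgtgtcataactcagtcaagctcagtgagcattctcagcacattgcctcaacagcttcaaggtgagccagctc
HRK: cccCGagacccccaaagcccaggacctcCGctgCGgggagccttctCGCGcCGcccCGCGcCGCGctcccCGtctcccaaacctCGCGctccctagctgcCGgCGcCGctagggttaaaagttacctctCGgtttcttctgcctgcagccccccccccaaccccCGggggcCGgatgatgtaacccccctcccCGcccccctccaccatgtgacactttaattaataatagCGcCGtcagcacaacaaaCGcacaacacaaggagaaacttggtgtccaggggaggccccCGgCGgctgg
BOK: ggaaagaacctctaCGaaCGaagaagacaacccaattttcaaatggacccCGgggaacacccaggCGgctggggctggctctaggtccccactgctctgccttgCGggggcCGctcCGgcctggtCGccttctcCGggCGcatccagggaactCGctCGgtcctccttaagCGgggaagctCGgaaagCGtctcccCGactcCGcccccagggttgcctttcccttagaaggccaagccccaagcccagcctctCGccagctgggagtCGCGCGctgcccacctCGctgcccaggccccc

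The BCL2A1 window held 2 CG dinucleotides, fewer than most: 11% of the 35116 RefSeq windows of 300 bases held fewer, and the median was 14. HRK held 25 and BOK 22, and the other risers held still more, BID 37, BCL2L11 39 and PMAIP1 42. Among the 31 of 39 genes matched in the RefSeq promoter table, the base composition of risers was therefore not alike. The windows were searched on both strands for the E-box CACGTG (in 7.26% of all windows), the AP-1 motif TGACTCA (4.95%), the TATA motif TATAAA (11.5%), the GC box GGGCGG (45%) and the NF-kB consensus (11.3%), counting overlapping matches. BCL2A1 held 1 TATAAA and none of the others. BOK held 1 GGGCGG. HRK held 2 GGGCGG and 3 matches to the NF-kB consensus, and no other of the 6 risers held the latter. The 3 matches overlap each other in the same stretch near the end of the window, counted over both strands. BMF and CFLAR, which did not pass, also held matches, so that 9.68% of the 31 genes had the NF-kB consensus, against 11.3% of all windows. Such matches describe letters in these windows and are not evidence of binding.

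Of the other BCL2-like genes, BCL2L12 and BCL2L13 did not pass, with log2 ratios of -0.04 and -0.14 (edgeR adjusted p = 0.726 and 0.105). BCL2L13, a mitochondrial protein tied to mitophagy, had each BMI1 library below each GFP library, from 62.9 to 69.0 against 70.6 to 74.0 CPM. Exons of BCL2L12 overlap those of IRF3 on the other strand. BCL2L14 fell below the filter with 2 counts over the GFP and 3 over the BMI1 libraries.

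None of the 5 tested initiator and executioner caspases passed, where 26.4% of all tested genes did. Caspase 8 starts the death receptor route and caspase 9 the mitochondrial route. CASP8 stood at 32.9, 36.8 and 35.8 CPM in GFP and at 37.5, 37.8 and 37.9 CPM in BMI1 libraries. The BMI1 libraries lay just above the GFP libraries, and the log2 ratio was 0.10 (SE 0.06, edgeR adjusted p = 0.216), or 0.16 after GC correction (edgeR adjusted p = 0.00584). CASP9 stood at 16.3, 13.6 and 12.6 CPM in GFP and between 13.1 and 13.5 CPM in BMI1 libraries, where GFP replicate 1 was the highest of all. CASP2, CASP6 and CASP10 had log2 ratios of -0.11, 0.03 and -0.04. At an unadjusted p under 0.05 the count of these 5 was also 0, as it was for calls by DESeq2 and limma-voom.

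Of the inflammatory caspases, CASP4, which senses bacterial lipopolysaccharide in the cytosol, did not pass, with 36.7 ± 2.93 CPM in GFP and 38.6 ± 0.822 CPM in BMI1 libraries (log2 ratio 0.07, edgeR adjusted p = 0.447). After GC correction it had 0.13 (edgeR adjusted p = 0.0494). CASP1, which activates interleukin-1 beta, fell below the filter. It was counted 2, 1 and 1 times in GFP and 4, 5 and 7 times in BMI1 replicates 1, 2 and 3. With no filter on low counts it had a log2 ratio of 2.06 (SE 0.73, edgeR adjusted p = 0.0512) and did not pass. Part of CASP1 is near-identical to its shorter neighbour CARD16, so the few CASP1 reads are uncertain.

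The adaptors and brakes of death receptors, FADD, TRADD, RIPK1 and CFLAR, did not pass, and their groups overlapped in each case. CFLAR, which encodes the caspase 8 inhibitor FLIP, stood at 77.0, 77.2 and 75.5 CPM in GFP and at 79.4, 77.6 and 74.8 CPM in BMI1 libraries. Its log2 ratio was 0.01, with a 95% interval from -0.10 to 0.13. FADD, which carries caspase 8 to the receptor, had 0.08, RIPK1, the kinase at the branch between survival and death, -0.04, and TRADD, the adaptor of the TNF receptor, 0.14. In the necroptosis pair, RIPK3 had 0 counts throughout, while its substrate MLKL, the membrane-breaking effector, stood at 26.5, 27.2 and 25.8 CPM in GFP and at 25.4, 26.7 and 27.5 CPM in BMI1 libraries. The count of 0 allows up to 0.149 CPM of RIPK3 in the shallowest and 0.0994 CPM in the deepest library, for counting error only.

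Among the proteins that act after the mitochondrial membrane opens, HTRA2 fell and 4 did not pass (falls over all tested genes 9.32%). HTRA2, a serine protease that binds XIAP, stood at 44.1, 45.2 and 45.4 CPM in GFP and at 39.1, 39.2 and 40.6 CPM in BMI1 libraries. The groups did not overlap, and the log2 ratio was -0.18 (SE 0.05, edgeR adjusted p = 0.0229). The call was lost without GFP replicate 2 (edgeR adjusted p = 0.0807), GFP replicate 3 (0.0611) or BMI1 replicate 1 (0.0864), with values from -0.18 to -0.17. Exons of HTRA2 overlap those of AUP1 and LOXL3 on the other strand. AUP1 had a log2 ratio of -0.15 (edgeR adjusted p = 0.0837) and LOXL3 0.15 (edgeR adjusted p = 0.0702), and their part in the HTRA2 value was not tested.

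AIFM1, a mitochondrial oxidoreductase that moves to the nucleus in some forms of death, stood at 72.6, 73.1 and 69.5 CPM in GFP and at 76.6, 82.8 and 80.8 CPM in BMI1 libraries. It missed the threshold, with a log2 ratio of 0.16 (SE 0.06, edgeR adjusted p = 0.0576). It passed with limma-voom (adjusted p = 0.043), under the filter of at least 1 CPM in 3 libraries (edgeR adjusted p = 0.0476), after GC correction (0.00632) and without GFP replicate 1 (0.0164). CYCS, which encodes cytochrome c, stood at 195, 223 and 231 CPM in GFP and at 194, 214 and 189 CPM in BMI1 libraries, with overlap through GFP replicate 1. Its log2 ratio of -0.12 did not pass (edgeR adjusted p = 0.202), and without GFP replicate 1 it was -0.18 (edgeR adjusted p = 0.00802). CYCS has processed pseudogene copies that could take part of its reads. APAF1, the scaffold of the apoptosome, and DIABLO, an antagonist of XIAP, had -0.11 and -0.07 and did not pass.

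XIAP, a direct inhibitor of caspases, stood at 61.2, 67.3 and 79.3 CPM in GFP and at 66.6, 74.7 and 66.0 CPM in BMI1 libraries. The BMI1 values fell inside the range of the GFP values, and the log2 ratio was -0.01 (SE 0.09, 95% interval -0.20 to 0.19).

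For 27 of the 28 genes that did not pass, the 95% interval of the log2 ratio lay within a 1.5-fold change in either direction. The exception was BIK. The lowest lower bound among the 28 was -0.33, for BBC3. The replicates of these genes lay close together: the median distance of a library from the mean of the other 2 of its group, over the 35 tested genes, ran from 0.06 to 0.10 on the log2 scale and was largest in GFP replicate 1.

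**Figure D4:**
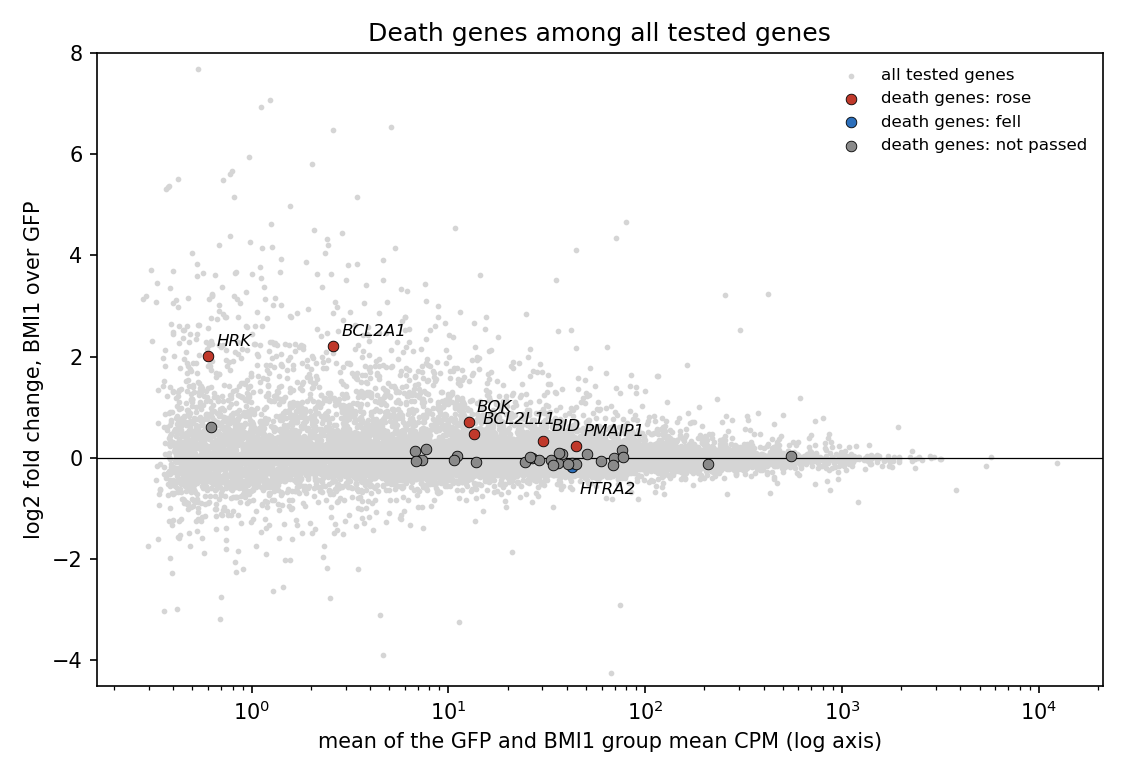
Log2 ratio (BMI1 over GFP, y axis) against the mean of the 2 groups' CPM (x axis, log scale) for all 15079 tested genes (light grey) and the 35 tested death genes (outlined; red rose, blue fell, grey did not pass). The 2 large rises, BCL2A1 and HRK, lie at low levels, and the abundant death genes lie near 0.

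The remaining genes of the pathway came from 6 lists with 78 different genes, of which 63 were tested, 10 rose, 5 fell and 48 did not pass, or 23.8% called against 26.4% of all tested genes. These lists, too, were chosen with earlier results known, and their shares were not tested. In the lists of other IAP proteins and of other caspases with their substrates, 0 of 5 and 0 of 6 tested genes passed by edgeR. By unadjusted p under 0.05 there were 2 and 0. After GC correction 1 IAP gene rose and 1 gene of the caspase list fell, where 37.4% of all tested genes passed. BIRC6, a giant ubiquitin ligase that restrains caspases, stood at 161 ± 13.8 and 146 ± 7.92 CPM, and PARP1, a classical caspase substrate, at 439 ± 3.38 and 450 ± 8.42 CPM in GFP and BMI1 libraries. Without GFP replicate 1, 2 of the IAP genes fell: BIRC6 had -0.20 in place of -0.14 (edgeR adjusted p = 0.00476) and BIRC3, named after its value was seen, had -0.41 (edgeR adjusted p = 0.00295).

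Of 18 BCL2 partners at mitochondria, 2 rose and 3 fell, or 27.8%, close to the 26.4% of all tested genes. These genes, named after their values were seen, were BCAP31 (log2 ratio 0.15) and AIFM3 (0.88, at 1.06 CPM in BMI1 libraries), and BNIP1 (-0.27), the co-chaperone BAG3 (-0.25) and the channel VDAC3 (-0.18). VDAC1, the most abundant of the list in counts, had 0.07 and did not pass, whereas after GC correction it passed at 0.09 (edgeR adjusted p = 0.0111). The BCAP31 call was lost on leaving out any library but GFP replicate 1. Those of VDAC3 and AIFM3 were each lost under 7 alternatives, both without GFP replicate 2, GFP replicate 3 or BMI1 replicate 3, VDAC3 also without BMI1 replicate 1 and under the replicate block (edgeR adjusted p = 0.0502), and AIFM3 also without BMI1 replicate 2.

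Of 10 tested genes of the inflammasome and pyroptosis list, 4 rose and 6 did not pass, where 17.1% of all tested genes rose. The median log2 ratio was 0.25 over these 10 and -0.01 over all tested genes. AIM2, a cytosolic DNA sensor, stood at 18.5, 20.2 and 20.6 CPM in GFP and at 31.3, 34.5 and 33.6 CPM in BMI1 libraries. The rise was 1.67-fold (log2 ratio 0.74, SE 0.06, edgeR adjusted p = 2.91e-06). The other 3, named after their values were seen, were at low levels. IL1B went from 0.157 to 0.80 CPM, IL1A from 2.24 to 4.07 CPM and NLRP3 from 0.618 to 1.25 CPM. IL1B lay below the filter on low counts in the GFP libraries. It therefore entered the test, and the count and median above, only through the BMI1 libraries, where it was higher. The NLRP3 call was lost with DESeq2 (adjusted p = 0.0553) and on leaving out GFP replicate 2 (edgeR adjusted p = 0.0926) or either BMI1 replicate 2 (0.0657) or 3 (0.0843). PYCARD, the adaptor that joins such sensors to caspase 1, also named after its values were seen, did not pass the filter, and GSDMD, the pore-forming gasdermin, had a log2 ratio of 0 (edgeR adjusted p = 0.975). After GC correction GSDMD passed as lower, at -0.12 (edgeR adjusted p = 0.0393).

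In the death receptor list, 2 of 12 tested genes rose and 10 did not pass, or 16.7%, close to the 17.1% of all tested genes that rose. FAIM2, an inhibitor of FAS-mediated death best known from neurons, stood at 3.88, 3.86 and 2.68 CPM in GFP and at 13.0, 11.5 and 12.1 CPM in BMI1 libraries. Its rise was 3.56-fold (log2 ratio 1.83, SE 0.13, edgeR adjusted p = 6.17e-07). TNFRSF1A, the main TNF receptor, had 0.21 (edgeR adjusted p = 0.0493), and its call was lost with scaling by DESeq2's size factors (edgeR adjusted p = 0.0576) and on leaving out any library but GFP replicate 1 (from 0.0929 to 0.191). CYLD, a deubiquitinase named after its value was seen, was lower without GFP replicate 1, at -0.21 (edgeR adjusted p = 0.00975).

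Of 12 tested transcription factors known to act on these genes, 2 rose and 2 fell, or 33.3% called, against 26.4% of all tested genes (17.1% rises and 9.32% falls). Without GFP replicate 1, and also after GC correction, 3 rose and 2 fell, where 36.9% and 37.4% of all tested genes were called. TP73 had a log2 ratio of 0.59 (SE 0.09, edgeR adjusted p = 0.000456), from 12.6 ± 1.69 to 18.8 ± 1.11 CPM. E2F1, a cell cycle factor, had 0.35, from 42.7 ± 0.936 to 54.5 ± 4.46 CPM. DDIT3, which encodes the stress factor CHOP, stood at 44.1, 42.9 and 39.2 CPM in GFP and at 29.6, 28.2 and 29.9 CPM in BMI1 libraries, without overlap (log2 ratio -0.52, SE 0.06, edgeR adjusted p = 3.73e-05). ATF4, which acts upstream of DDIT3 in the stress response, had -0.02 (edgeR adjusted p = 0.83). NFKB1, named after its value was seen, was the other fall (edgeR adjusted p = 0.0376), and its call was lost under the replicate block (0.0532) and without GFP replicate 2 (0.124), GFP replicate 3 (0.0847), BMI1 replicate 1 (0.167) or BMI1 replicate 3 (0.149).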

How the data were processed

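The authors deposited estimated counts per gene symbol, not normalized, for 6 libraries. Per the submitters' processing notes, RSEM 1.2.12, Bowtie 1.0.1 and hg19 were used. Settings and strand protocol are not given in the sources used. Of the deposited rows, 3468 had 0 counts throughout.

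Libraries were grouped by title. Estimated counts were rounded to whole numbers, filtered with filterByExpr, scaled with TMM factors and put through the quasi-likelihood test of edgeR (edgeR 4.0.16, R 4.3.3), with p-values adjusted by Benjamini-Hochberg across 15079 tested genes. The log2 ratio is BMI1 over GFP, and its standard error is its size over the square root of F. The named genes are all 39 members. From 6 further lists they are those past the threshold with at least 5 CPM and a log2 change of at least 0.3, and the most abundant tested gene. List genes outside that rule were named after their values were seen, as stated beside them. Members and lists were chosen with earlier results of these data known. The pairwise spread within groups exceeded sampling noise, with a mean chi-square per gene from 2.24 to 11.8.

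Transcript length and GC content came from GENCODE 29 by symbol (GC for 94.6% of tested genes). Alternatives were DESeq2 1.42.0, limma-voom (limma 3.58.1), 2 scalings, 2 filters, a GC correction by lowess, the replicate block and leaving out each library. On simulated counts for BMI1 against GFP over 15079 genes, edgeR recovered 80.3% of genes changed 1.5-fold and 90.9% of those changed 2-fold, with 3.8% of calls false. The simulation held few changed genes, 66 tested at each of these folds, whereas 26.4% of tested genes were called in the data. Its spread followed the trend over genes and no library was set apart, so these rates need not hold for the data. Limits from 0 counts cover counting error only, and the 95% intervals from the edgeR fit cover no more than counting error and library-to-library spread. Figures were drawn with matplotlib 3.10.9.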

Additional observations from a re-analysis of the deposited data

How the results depend on the processing

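Of 488 values of the 35 tested members under 14 alternatives, 470 kept their direction where called and their side of the threshold, 7 lost a call, 11 gained one and 0 called values changed sign. BCL2A1, BOK, BID and BCL2L11 passed under each alternative, and HRK under each in which it was tested. With the libraries left out in turn, members called higher ran from 5 to 7 and members called lower from 0 to 2, all genes called lower from 711 (without BMI1 replicate 3) to 2451 (without GFP replicate 1), and genes of the other lists called higher from 6 to 11 and lower from 3 to 8. After GC correction, 9 members were called higher and 5 lower, against 6 and 1, with 2490 of all genes and 9 of the other lists called lower. The cause was not tested. GC correction also took the share of rises among calls from 64.8% to 55.8%, and leaving out GFP replicate 1 took it to 56.6%. With the longest transcript, the difference in the MCL1 share of the anti-apoptotic level turned from 2.09 to -0.0594 percentage points and that of BCL2A1 went from 1.39 to 1.86.

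The replicate block left 6 members higher and 1 lower, and 3 genes of the other lists lower in place of 5. Same-numbered libraries correlated at 0.0681, 0.0944 and -0.0648 in their deviations from the group means. Pairs with different numbers ran from -0.179 to 0.136. With 3 libraries in a group such values cannot tell whether same-numbered libraries shared a culture or batch.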
